A study of Mus musculus with 9 samples.

Results

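The cytosolic ribosomal protein genes were compared in sorted mouse cells from NIC tumors, from abnormal non-malignant samples and from controls, with 3 Affymetrix arrays in each group. A gene was taken in when a probe set with exactly 1 gene symbol carried a symbol beginning with Rpl or Rps and a digit, or Rplp0, Rplp1, Rplp2 or Rpsa. S6 kinase genes and pseudogene symbols were left out. This gave 50 genes with 106 probe sets, of 18193 genes and 45101 probe sets in all. Of the 50 genes, 43 encode structural proteins of the ribosome (21 of the small subunit and 22 of the large subunit) and 6 are paralog-type genes. The remaining gene, Rps19bp1, encodes an RPS19-binding protein and no ribosomal subunit protein, and came in through its symbol. Of 79 canonical ribosomal proteins listed, 44 had a probe set with a single symbol. These were the 43 structural genes and Fau, which the symbol rule leaves out. The others were not analysed here as single genes.

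The series concerns the origin of T-cell acute lymphoblastic leukemia and the non-malignant effects of NOTCH1 overexpression. Per the labels, the groups are NIC Tumor, Abnormal non-malignant and Control. The labels give no strain, age, promoter or sorted population, do not spell out NIC, and do not say whether the controls carry any transgene. Nor do they say whether each sample is a separate animal. The p-values therefore measure only the spread between these samples, and that spread may be technical.

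A ribosome is built from ribosomal RNA and a fixed set of ribosomal proteins, each of which is needed in about equal amount. Most mammalian ribosomal protein mRNAs begin with a run of pyrimidines at the 5′ end, the 5′ terminal oligopyrimidine (TOP) motif, through which the growth-signalling kinase complex mTORC1 controls their translation. In the T lineage, loss of the large-subunit protein Rpl22 is known to block development of alpha-beta T cells in mice, and several ribosomal protein genes are mutated in human T-cell acute lymphoblastic leukemia.

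The promoter windows of 7 genes that were higher in tumors than in controls are shown because the pyrimidine run at the transcription start is the sequence feature that ribosomal protein genes are known to share. They were picked after the results were seen. Each runs from 40 bases before to 20 bases after a RefSeq start (build GRCm38.p6), on the strand of the gene, and capitals mark a run of C followed by at least 4 further C or T that begins within 20 bases of the start. Rpl37 is shown as a gene without such a run. Rpl14 lies at chr9:120571477-120571536 on the plus strand, Rpl27a at chr7:109519155-109519214 on the plus strand, and Rpl35 at chr2:39005112-39005171 on the minus strand. Rpl38 lies at chr11:114668540-114668599 on the plus strand, Rps18 at chr17:33955646-33955705 on the minus strand, Rps2 at chr17:24720023-24720082 on the plus strand, and Rpl37 at chr15:5116573-5116632 on the plus strand.
Rpl14: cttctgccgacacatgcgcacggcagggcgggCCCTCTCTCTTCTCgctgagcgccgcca
Rpl27a: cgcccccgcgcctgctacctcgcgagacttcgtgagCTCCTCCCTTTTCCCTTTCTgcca
Rpl35: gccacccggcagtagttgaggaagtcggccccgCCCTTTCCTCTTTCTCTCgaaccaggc
Rpl38: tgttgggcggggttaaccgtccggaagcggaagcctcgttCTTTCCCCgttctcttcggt
Rps18: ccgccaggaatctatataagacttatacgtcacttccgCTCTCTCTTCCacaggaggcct
Rps2: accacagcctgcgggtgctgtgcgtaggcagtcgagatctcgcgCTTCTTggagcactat
Rpl37: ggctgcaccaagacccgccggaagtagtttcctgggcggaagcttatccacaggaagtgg

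A promoter was matched by symbol for 44 of the 50 genes. The pyrimidine run was found in 34 of these 44 (77.3%), against 53.4% of the tested genes with a promoter and 51.4% of all genes with one. Of the 12 genes called higher in tumors than in controls, 10 held the run, and Rpl37 and Rpsa did not. CCGGAAG, the core bound by ETS-family factors, occurred on either strand within 300 bases in 47.7% of the ribosomal protein promoters, against 18.3% of tested genes and 9.9% of all genes. CACGTG, the E-box that Myc can bind, occurred in 9.1%, against 11.0% of tested genes and 8.1% of all genes. These were the 3 motifs searched, and a gene with several starts counts when any of them holds the motif. A match is a description of letters in a window, not evidence of a bound site.

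The values are log2 levels deposited by the authors. Across all probe sets and arrays they ran from 2.68 to 14.57. On every array, 34 of the 42 tested structural genes exceeded the 99th percentile of all probe sets, which was 11.86 to 12.01. The arrays are few, which limits the precision. Non-malignant arrays 2 and 3 were closer to each other than any other pair compared within their group: their differences over all tested genes had an SD of 0.16, against 0.37 and 0.38 for the pairs with array 1. Of the tumor arrays, array 1 differed least from the non-malignant arrays (SD of differences 0.46 to 0.47). Tumor array 1 was closer to them than to tumor arrays 2 and 3 (SD 0.63 and 0.79). Counts of called genes that these arrays change are given with and without them.

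The probe set with the highest mean over the 9 arrays represented each gene, and 46 of the 50 genes passed the filter, a level over the 40th percentile of all probe sets on 3 arrays or more. Rpl39l, Rpl3l, Rps4l and Rps16 lay below it on all 9 arrays and were not tested. Rpl3l, the striated muscle paralog of Rpl3, had log2 levels of 4.15, 4.68 and 4.15 in tumors, 4.12, 4.27 and 4.27 in non-malignant samples, and 4.18, 4.23 and 4.32 in controls. The chosen probe set of Rps16, a structural gene, was as dim as those of the 3 paralog-type genes, between 3.88 and 4.32.

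In NIC tumors, 12 of the 46 tested genes were higher than in controls and 0 were lower, at an adjusted p under 0.05 from limma with Benjamini-Hochberg adjustment over 13296 genes. Over all genes, 15.7% were called in this comparison, 8.48% higher and 7.19% lower. The median log2 difference was 0.20 for the tested ribosomal protein genes and 0.06 for all genes. At an unadjusted p under 0.05, 22 were higher and 0 lower (over all genes 32.2%, with 17.4% higher and 14.8% lower), and 41 of 46 differences lay above 0 (56.4% over all genes). The 3 tumor arrays lay wholly above the 3 controls for 26 genes and wholly below for 1, against 18.2% and 14.3% of all genes (32.5% in either direction). The count was 17 without tumor 1, where 16.6% of all genes were called higher, and 8 without non-malignant 2 or non-malignant 3 (6.21% and 6.2%). It was 8 with those 2 non-malignant arrays averaged as 1 sample (6.24%), 8 without tumor 2 (5.16%) and 8 without control 2 (4.02%). Without control 1 or control 3 it was 7 (5.18% and 4.71%). The count over the whole table moved the same way in each of these fits. In these bulk samples, a change in the share of cells of a type and a change in RNA per cell cannot be told apart.

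**Figure D1:**
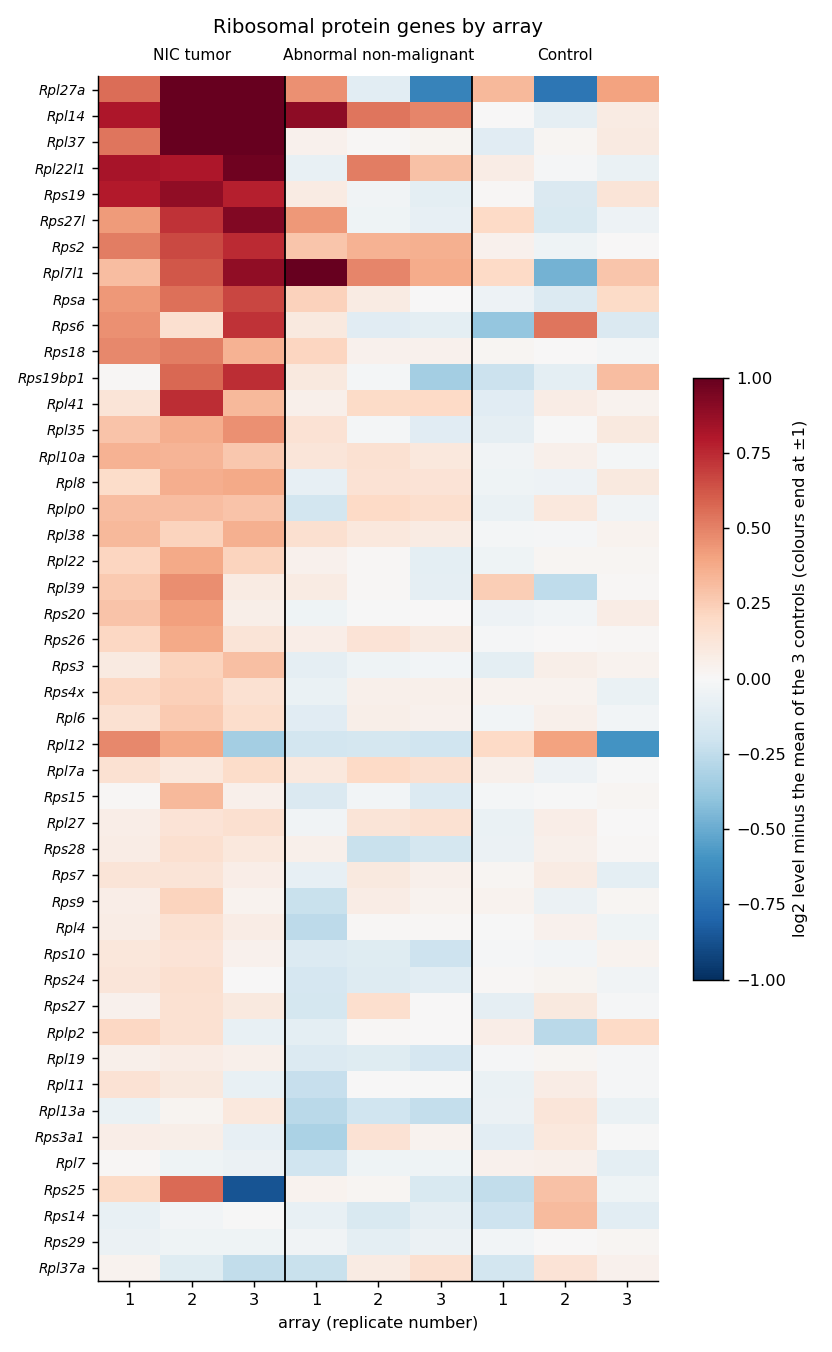
Log2 level of each of the 46 tested genes on each array, minus the mean of the 3 controls (colour, ending at 1 in each direction), with the arrays in columns and genes ordered by tumor minus control difference. Red is densest in the tumor columns of the upper rows, while most of the lower rows are pale; Rps25 is an exception, with tumor arrays from 8.46 to 9.89 around a control mean of 9.32.

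The small-subunit genes called higher in tumors than in controls were Rps19, Rps2, Rpsa and Rps18, 4 of 20 tested. Of all genes, 8.48% were called higher. Rps19, which is needed to mature the small subunit and is mutated in human Diamond-Blackfan anemia, had log2 levels of 13.20, 13.29 and 13.18 in tumors, 12.48, 12.37 and 12.30 in non-malignant samples, and 12.41, 12.26 and 12.53 in controls. All tumor arrays lay above all other arrays, and the other groups overlapped. The difference was 0.82 ± 0.10 (SE) against controls, a 1.77-fold higher level (limma adjusted p = 0.00147). Rps2, near the mRNA entry of the small subunit, had 13.35, 13.50 and 13.59 in tumors, 13.12, 13.19 and 13.20 in non-malignant samples, and 12.88, 12.80 and 12.84 in controls. The 3 groups did not overlap, with tumors highest and controls lowest, and tumors differed from controls by 0.64 ± 0.09 (adjusted p = 0.00213).

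Rpsa, a small-subunit protein that is mutated in human congenital asplenia, had log2 levels of 13.75, 13.87 and 13.99 in tumors, 13.55, 13.40 and 13.32 in non-malignant samples, and 13.26, 13.18 and 13.51 in controls. Its tumor arrays lay above all others, at 0.55 ± 0.11 over controls (adjusted p = 0.0112). Rps18, a protein of the head of the small subunit, had 13.72, 13.75 and 13.58 in tumors, 13.45, 13.28 and 13.28 in non-malignant samples, and 13.26, 13.24 and 13.22 in controls. No 2 groups overlapped for Rps18, and tumors differed from controls by 0.45 ± 0.08 (adjusted p = 0.00934). Its call ended when the mean of its probe sets replaced the brightest one, at 0.35 or above in every setting tried. That mean also took in its probe sets that did not pass the filter.

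Of the 22 large-subunit genes tested, 6 were called higher: Rpl27a, Rpl14, Rpl37, Rpl35, Rpl10a and Rpl38. The share called higher over all genes was 8.48%. Rpl14 had log2 levels of 7.21, 7.41 and 7.77 in tumors, 7.30, 6.94 and 6.89 in non-malignant samples, and 6.41, 6.32 and 6.48 in controls. Both the tumor and the non-malignant arrays lay above the controls, and they overlapped each other. Tumors differed from controls by 1.06 ± 0.18, a 2.09-fold higher level (adjusted p = 0.00684). This was the only Rpl14 probe set with 1 symbol, and it was dim: 34 structural genes read 12.26 or above on every array. Rpl37 had 10.98, 11.62 and 11.49 in tumors, 10.48, 10.45 and 10.47 in non-malignant samples, and 10.33, 10.46 and 10.53 in controls. Tumor arrays were all above the rest, by 0.92 ± 0.18 over controls (adjusted p = 0.0100).

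Rpl27a had the largest difference of the 46 genes and the widest spread. Its log2 levels were 8.44, 10.72 and 11.07 in tumors, 8.34, 7.77 and 7.22 in non-malignant samples, and 8.20, 7.16 and 8.28 in controls. Tumor array 1 lay close to the highest non-malignant and control arrays, while tumor arrays 2 and 3 were far above. The difference was 2.20 ± 0.63 (adjusted p = 0.0436), and it was called in 1 of the 9 fits that left out 1 array, the one without tumor 1, with differences of 1.70 to 3.02. The other Rpl27a probe set did not pass the filter, and the one used was also dim beside those 34 structural genes.

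Rpl35, Rpl10a and Rpl38 differed by less. Rpl35 had log2 levels of 13.22, 13.30 and 13.39 in tumors, 13.08, 12.91 and 12.82 in non-malignant samples, and 12.85, 12.93 and 13.03 in controls, a difference of 0.37 ± 0.10 from controls (adjusted p = 0.0348). Rpl10a had 13.24, 13.23 and 13.16 in tumors, 13.01, 13.04 and 13.00 in non-malignant samples, and 12.86, 12.94 and 12.87 in controls, a difference of 0.32 ± 0.08 (adjusted p = 0.0226). Rpl38, which is mutated in Tail-short mice and promotes translation of Hox mRNAs there, had 13.42, 13.32 and 13.45 in tumors, 13.26, 13.20 and 13.18 in non-malignant samples, and 13.08, 13.08 and 13.13 in controls. Its tumor arrays lay above all others, with a difference of 0.30 ± 0.08 from controls (adjusted p = 0.0280). With 1 array left out, Rpl35 was called in 2 of 9 fits, Rpl38 in 3 and Rpl10a in 6. The Rpl35 call ended without tumor 2 or 3, non-malignant 2 or 3, or any 1 control, and the Rpl38 call without tumor 3, non-malignant 2 or 3, or any 1 control. The Rpl10a call ended without tumor 2, control 1 or control 3.

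**Figure D2:**
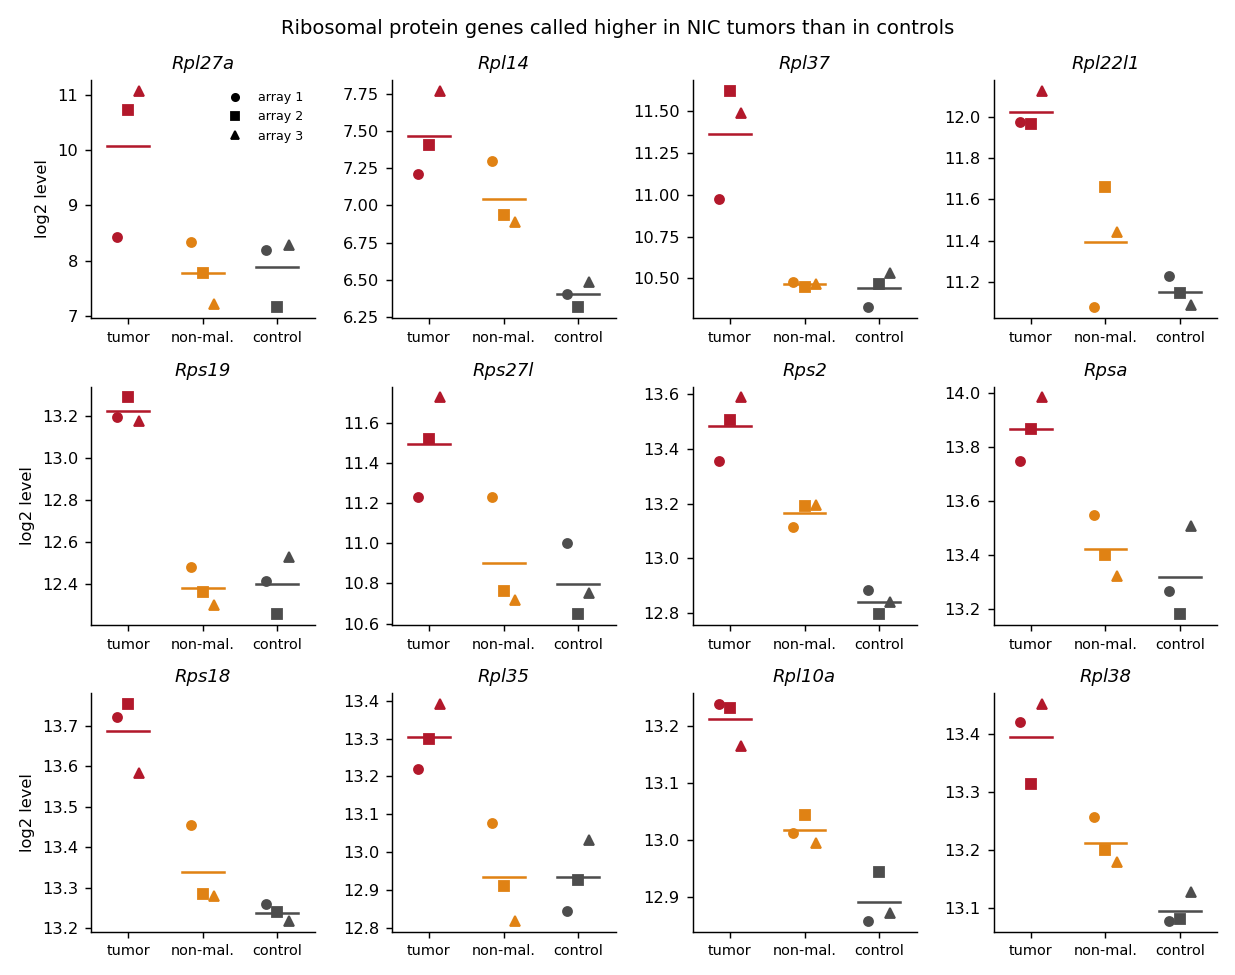
Log2 level of the 12 genes called higher in NIC tumors than in controls, 1 panel per gene, with arrays as points (shape gives the replicate number) and group means as lines; each panel has its own axis, which does not start at 0. Rpl27a spreads over more than 2 log2 units among tumors, while the tumor points of Rps19 lie between 13.18 and 13.29.

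Of the 3 paralog-type genes tested, Rpl22l1 and Rps27l were called higher in tumors than in controls, where 8.48% of all genes were. Rpl22l1, the paralog that Rpl22 represses in mice, had log2 levels of 11.97, 11.96 and 12.13 in tumors, 11.08, 11.66 and 11.44 in non-malignant samples, and 11.23, 11.14 and 11.09 in controls. Tumor arrays lay above all others, at 0.87 ± 0.16 over controls (adjusted p = 0.00795). Its partner Rpl22 had 13.02, 13.19 and 13.03 in tumors, 12.85, 12.82 and 12.71 in non-malignant samples, and 12.76, 12.83 and 12.83 in controls. Rpl22 tumor arrays also lay above all others, but the difference of 0.27 (95% interval 0.07 to 0.47) missed the threshold (adjusted p = 0.0674). Both members of the pair thus had positive differences, and no level was set between their probe sets.

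Rps27l, a p53 target in human cells, had log2 levels of 11.23, 11.52 and 11.73 in tumors, 11.23, 10.76 and 10.71 in non-malignant samples, and 11.00, 10.65 and 10.75 in controls. The difference from controls was 0.69 ± 0.19 (adjusted p = 0.0383), and the call was kept in 2 of the 9 fits with 1 array left out, ending without tumor 2 or 3, non-malignant 2 or 3, or any 1 control. The Rps27l set used has an ID that marks possible shared sequence. Its passing set without that mark gave 0.35, with tumor array 3 (10.58) below control array 1 (10.75). Its partner Rps27 differed by 0.10 (95% interval -0.25 to 0.44, adjusted p = 0.699). Rps27 was read from 1 probe set, which was dim, at 8.04 to 8.39 over the 9 arrays. Rpl7l1, related in sequence to Rpl7, had 9.05, 9.36 and 9.63 in tumors, 9.75, 9.23 and 9.12 in non-malignant samples, and 8.94, 8.27 and 9.02 in controls. Both groups lay above the controls without passing the test, at 0.60 in tumors (adjusted p = 0.148) and 0.62 in non-malignant samples (adjusted p = 0.334). Rpl7 itself differed by -0.03 in tumors (95% interval -0.22 to 0.16).

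Among the genes not called, several have well-known roles. Rplp0, the base of the ribosomal stalk, had log2 levels of 13.59, 13.59 and 13.57 in tumors, 13.10, 13.48 and 13.45 in non-malignant samples, and 13.21, 13.38 and 13.25 in controls. Its tumor arrays lay above all others, with a difference of 0.30 from controls (adjusted p = 0.0917). Rplp2, which forms the stalk with it, differed by 0.10 (95% interval -0.19 to 0.38). Rpl11, which joins the 5S particle and binds Mdm2, differed by 0.06 (95% interval -0.18 to 0.29).

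Rps6, the substrate of the S6 kinases, had log2 levels of 8.16, 7.87 and 8.42 in tumors, 7.80, 7.59 and 7.61 in non-malignant samples, and 7.31, 8.24 and 7.55 in controls. Control 2 lay among the tumors, and the difference of 0.45 did not pass (95% interval -0.11 to 1.00, adjusted p = 0.245). Rps14, whose loss is known from human 5q- syndrome, differed by -0.04 (95% interval -0.31 to 0.24). The Diamond-Blackfan anemia genes Rps24, Rps7 and Rps26 had differences of 0.10, 0.11 and 0.24, with adjusted p-values of 0.405, 0.400 and 0.0821. Rps20 differed by 0.25 (adjusted p = 0.130) and Rps3, at the mRNA entry, by 0.21 (adjusted p = 0.122).

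The lowest differences of tumors from controls among tested genes were -0.11 for Rpl37a, -0.05 for Rps29 and -0.04 for Rps14 and Rps25. Rps29 had log2 levels of 14.02, 14.03 and 14.04 in tumors, 14.04, 13.97 and 14.01 in non-malignant samples, and 14.05, 14.08 and 14.09 in controls. It was the gene whose tumor arrays lay wholly below the controls, with a 95% interval of -0.18 to 0.08 for the difference. Rps25, which some viral internal entry sites need, ranged from 8.46 to 9.89 in tumors and from 9.08 to 9.61 in controls, so its tumors spread past the controls on both sides.

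**Figure D3:**
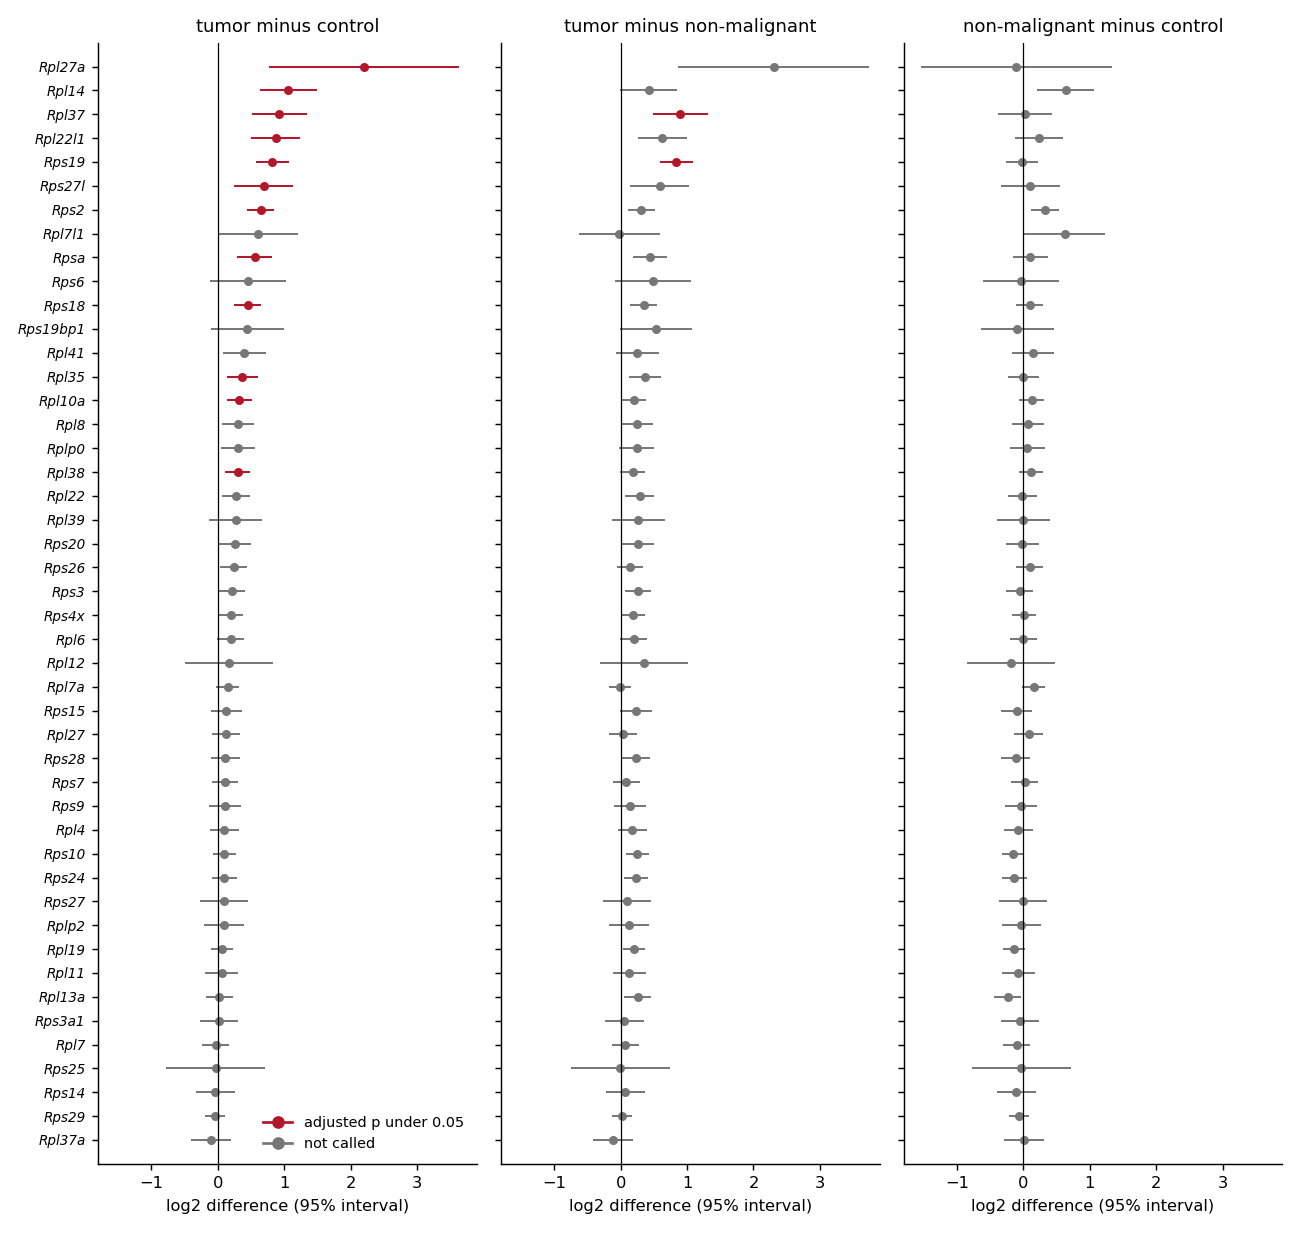
Log2 difference of each tested gene with its 95% interval from limma, for tumor minus control, tumor minus non-malignant and non-malignant minus control, with genes in the same order in each panel. Red marks an adjusted p under 0.05: 12 genes in the left panel, Rps19 and Rpl37 in the middle panel and 0 in the right panel.

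Between tumors and non-malignant samples, 2 of 46 genes were called higher and 0 lower, where 4.23% of all genes were called (1.53% higher and 2.7% lower). These were Rps19, at 0.84 ± 0.10 (adjusted p = 0.00467), and Rpl37, at 0.90 ± 0.18 (adjusted p = 0.0297). The median difference was 0.23, against 0.03 over all genes, and 42 of 46 differences lay above 0 (53.5% over all genes). At an unadjusted p under 0.05, 25 genes were higher and 0 lower, against 11.6% higher and 14.4% lower of all genes (25.9% in all). The groups did not overlap for 25 genes, each higher in tumors, against 12.3% higher and 14.8% lower of all genes (27.1% in either direction). Rps18 (0.35, adjusted p = 0.0504), Rpsa (0.44, 0.0531) and Rpl22l1 (0.63, 0.0543) lay just past the threshold.

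The count of called genes in this comparison moved with single arrays, as did the count over all genes. Without tumor 1 it was 15, where 11.9% of all genes were called higher. It was 1 without tumor 2, tumor 3, any 1 non-malignant array, control 1 or control 3, where 0.0453% to 0.918% of all genes were called higher. With the close non-malignant arrays 2 and 3 averaged as 1 sample it was also 1, against 0.0832% of all genes. Rps19 was called in every one of these fits, at 0.80 to 0.89 with 1 array left out, and Rpl37 in 2 of the 9.

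Between non-malignant samples and controls, 0 of 46 genes were called by limma, where 3.53% of all genes were called (2.87% higher and 0.654% lower). At an unadjusted p under 0.05, 4 were higher and 1 lower, against 9.36% and 3.92% of all genes (13.3% in all). The groups did not overlap for 8 genes that were higher and 6 that were lower, against 17% and 9.15% of all genes (26.1% in either direction), and 21 of 46 differences lay above 0 (51.3% over all genes). The median difference was -0.01, beside 0.01 over all genes. The largest differences were 0.64 for Rpl14 (95% interval 0.23 to 1.05, adjusted p = 0.116) and 0.62 for Rpl7l1. Rps2 followed at 0.33 (95% interval 0.13 to 0.52, adjusted p = 0.0838). With only these 2 groups in the fit, Rpl14 and Rps2 were called higher, 4.35% of the 46 genes, where 6.18% of all genes were. Rpl13a, known for its part in silencing inflammatory mRNAs in human monocytes, had log2 levels of 13.22, 13.29 and 13.26 in non-malignant samples and 13.43, 13.61 and 13.43 in controls. Those groups did not overlap, and Rpl13a had the lowest difference of the tested genes, -0.23 (95% interval -0.42 to -0.05, adjusted p = 0.231). Its other passing probe sets gave 0.04, -0.08 and -0.18, so they did not all share its sign. For Rps19 the difference was -0.02 (95% interval -0.25 to 0.21). All 3 comparisons share samples pairwise, so their values stand side by side and are not independent.

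Seen array by array, the median shift of the 42 structural genes from their own means was 0.11, 0.18 and 0.08 in tumors, -0.12, -0.03 and -0.05 in non-malignant samples, and -0.13, -0.02 and -0.06 in controls. The 3 tumor arrays were above the other 6. The typical (median) within-group SD was 0.09 in tumors, 0.09 in non-malignant samples and 0.08 in controls for these genes, against 0.30, 0.14 and 0.17 for all tested genes. A split by brightness was chosen after seeing the values. Of 34 structural genes whose mean exceeded the mean 99th percentile, 7 were called higher in tumors than in controls, with a median difference of 0.14. Of the 8 dimmer genes 3 were called, with a median of 0.36. These 3 were Rpl14, Rpl27a and Rpl37, which had the largest differences from controls among the structural genes. Over all tested genes 8.48% were called higher. Whether the brightest probe sets were near the upper end of the scale was not tested.

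Probe sets of a gene did not always move together. Of 20 genes with several passing probe sets, all had the same sign for tumor minus control in 12. The number was 11 for non-malignant minus control and 15 for tumor minus non-malignant. The ranges below are for tumor minus control. The 5 passing sets of Rpl35 ranged from 0.37 to 0.66, the 4 of Rps18 from 0.26 to 0.49, and the 3 of Rps27l from 0.35 to 0.69. The 3 of Rps3 ranged from -0.06 to 1.77. Those of Rps9, named here after its values were seen, ranged from -1.05 to 0.11. The set at -1.05 read 12.25 on control 2, against 8.70 and 8.88 on controls 1 and 3, so 1 array made that difference. Probe sets with several symbols that include a ribosomal protein gene could not be given to 1 gene. Of 104 such sets that passed the filter, 87 lay above 0 for tumor minus control, with a median of 0.22, and the median was 0.25 for tumor minus non-malignant and -0.03 for non-malignant minus control. With sets whose ID marks possible shared sequence left out, 8 of 41 tested genes (19.5%) were called higher in tumors than in controls, against 8.47% of all genes in that fit. Rps2, Rpl37 and Rpl38, called in the main fit, have no probe set without that mark and were not tested there. The Rpl37 call against non-malignant samples rests on the same marked set.

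Other genes of the pathway were described from lists. Of 19 tested genes in a list called TOP translation genes here, 9 were higher in tumors than in controls and 0 lower, with a median of 0.35. Their TOP motif was taken from the list and was not searched. Of all genes, 8.48% were called higher. The 3 with the lowest adjusted p were Gas5, a non-coding host of small nucleolar RNAs (difference 1.23, adjusted p = 0.00489), Eif3l, a subunit of eIF3 (0.81, adjusted p = 0.00534), and Eif4b, a helper of the eIF4A helicase (0.54, adjusted p = 0.0168). Of 19 factors that carry ribosomal proteins or assemble subunits, 10 were higher and 0 lower, with a median of 0.65. Among them Tsr2, the chaperone of Rps26, differed by 0.77 (adjusted p = 0.0130) and Sdad1, the homolog of a yeast large-subunit export factor, by 1.23 (adjusted p = 0.0108).

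Of 16 RNA polymerase I and ribosomal RNA synthesis genes, 7 were higher and 0 lower in tumors than in controls, with a median of 0.57. For this and the 2 lists that follow, 8.48% of all genes were called higher and 7.19% lower. The catalytic subunits Polr1a and Polr1b differed by 1.50 (adjusted p = 0.00363) and 1.20 (adjusted p = 0.00876). Of 76 mitochondrial ribosomal proteins, which serve the separate ribosome of mitochondria, 24 were higher and 0 lower, with a median of 0.51. In the list of TOP translation control genes, 1 of 15 was higher, no more than the share over all genes, with a median of -0.22. The gene called was Larp1, which binds the TOP motif, at 11.00, 10.69 and 10.43 in tumors, 10.63, 10.50 and 10.67 in non-malignant samples, and 9.71, 9.24 and 9.80 in controls. Larp1 was higher in tumors than in controls (1.12, adjusted p = 0.00788) and in non-malignant samples than in controls (1.02, adjusted p = 0.0228).

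For non-malignant minus control, where 3.53% of all genes were called, 0 of 19 TOP translation genes and 0 of 19 assembly factors were called. Of 16 polymerase I genes 1 was called higher (Polr1e, 0.96, adjusted p = 0.0267), and of 76 mitochondrial ribosomal proteins 1. For tumor minus non-malignant, where 4.23% of all genes were called and 1.53% were higher, 2 of 19 TOP translation genes, 4 of 19 assembly factors, 1 of 16 polymerase I genes and 3 of 76 mitochondrial ribosomal proteins were called, all higher.

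**Figure D4:**
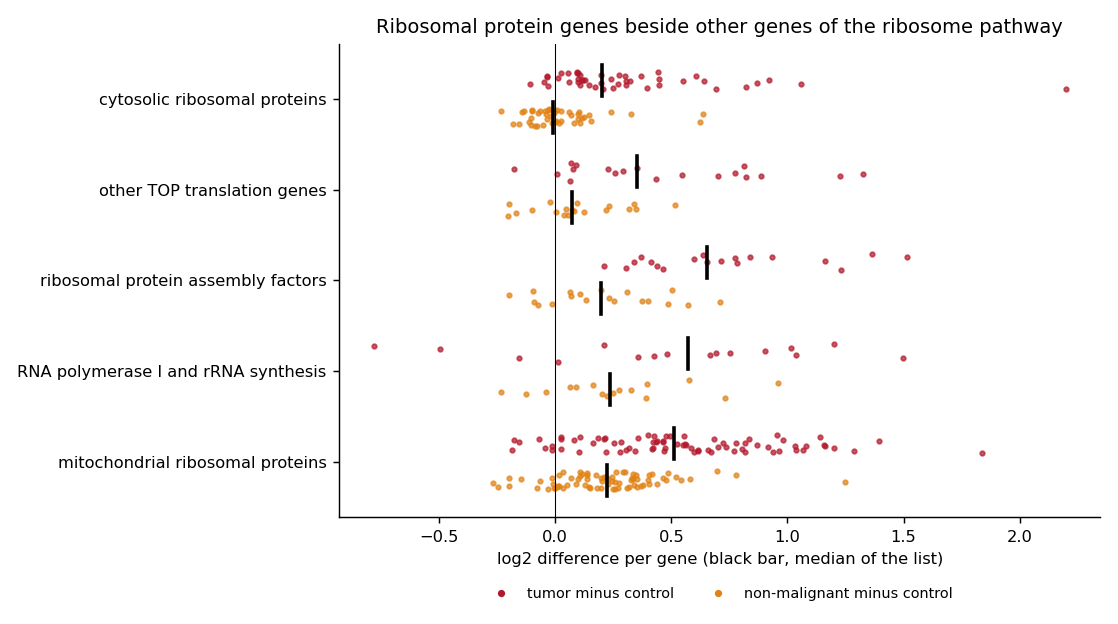
Log2 difference of each tested gene in 5 lists, for tumor minus control (red) and non-malignant minus control (orange), with a black bar at the list's median. Tumor medians run from 0.20 for the cytosolic ribosomal proteins to 0.65 for the assembly factors, and non-malignant medians from -0.01 to 0.24.

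The sorted cells expressed T lineage markers in all groups. All 7 measured markers read 8.57 or above on every array, where the 40th percentile was at most 5.30. Their summed linear level was 20740 to 34340 in tumors, 41580 to 42220 in non-malignant samples and 45120 to 55360 in controls. Cd4, Thy1 and Cd8b1 were lower in tumors than in controls (-2.12, -1.29 and -1.70, adjusted p = 0.0187, 0.0212 and 0.0260). Of 11 cell division genes, 4 were lower in tumors than in controls and 0 higher (7.19% lower over all genes), with the lowest adjusted p for Top2a (-0.95, adjusted p = 0.00349). The summed level of 10 myeloid markers was 673 to 1890 in tumors, 1182 to 1191 in non-malignant samples and 602.9 to 702 in controls, with Itgam below the filter. For 5 B lineage markers the sums were 246.2 to 434.2 in tumors, 224.1 to 349.3 in non-malignant samples and 348.8 to 515.3 in controls, with Ebf1 below the filter. For 3 erythroid markers they were 219.7 to 656.7 in tumors, 270.9 to 281.2 in non-malignant samples and 153.7 to 187.4 in controls, with Hba-a1 below the filter. The part of these markers in the ribosomal protein differences was not tested.

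Outside the ribosomal protein genes, the profiles over the 9 arrays most like their mean profile were those of Mfsd4b4 (Pearson r = 0.989), Abraxas1 (0.987) and Eif4b (0.986). These are descriptions across 9 arrays in 3 groups. Eif4b had log2 levels of 11.28, 11.49 and 11.37 in tumors, 10.88, 10.91 and 10.86 in non-malignant samples, and 10.87, 10.86 and 10.78 in controls.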

How the data were processed

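Sorted mouse cells gave 9 RNA samples, 3 per group, each run on 1 Affymetrix array. The log2 values of 45101 probe sets were deposited by the authors; per the labels, a microarray core did standard processing, and the normalization method is not given in the sources used here. Symbols of the platform annotation were updated through Entrez IDs to RefSeq (GRCm38.p6). Of the probe sets, 34945 had 1 symbol, 932 several and 9160 none. The brightest probe set represented a gene. Genes above the 40th percentile on at least 3 arrays (13296) were fitted with limma 3.58.1 in R 4.3.3 (1 mean per group over all 9 arrays, eBayes with a variance trend, two-sided, Benjamini-Hochberg over all genes, called under 0.05). The procedure was tested on simulated data. Members and lists were chosen with earlier results of these data known. Genes named were the 5 lowest and 5 highest differences per comparison, called genes, paralog pairs and a fixed set of well-known members; for other lists, the 3 lowest adjusted p-values at most. Python 3.11.15, pandas 2.3.3 and matplotlib 3.10.9 were used. Alternatives were 2 normalizations, filters, probe set rules, variance models, samples in the fit, a replicate block and leaving out each array. For motifs, the tested-gene background and the run search past the window edge were added after the first output was seen. Same-numbered samples of different groups had correlations of -0.05 to 0.22 of their deviations from the group means, and differently numbered samples -0.26 to 0.21. Deviations from a mean of 3 samples are tied to each other, so these correlations can hardly settle pairing. The numbers were not taken to pair the samples.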

Additional observations from a re-analysis of the deposited data

How the results depend on the processing

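The count of genes called higher in tumors than in controls (12) was 7 with only the 2 groups compared in the fit (3.76% of all genes). It was 7 to 17 with 1 array left out (4.02% to 16.6% of all genes), 7 without control 1 or control 3 (5.18% and 4.71%). The median difference (0.20) was 0.27 with median scaling (0.14 over all genes) and 0.17 to 0.27 with 1 array left out. It fell to 0.16 with quantile normalization, where the median over all genes rose from 0.06 to 0.11. That fit called 9 of the 46 genes higher (19.6%), against 9.75% of all genes. For non-malignant minus control, 2 genes were called higher with only the 2 groups (4.35% of the 46, against 6.18% of all genes). With 1 array left out the count was 0 to 1. It was 1 (2.17%) without tumor 1 or tumor 3, where 4.16% and 3.91% of all genes were called higher. For tumor minus non-malignant (2 called), shares of all genes called higher in the same fit stand in brackets. The count was 4 with median scaling (1.92%), 5 with a filter at the 60th percentile (2.51%) and 1 with only the 2 groups (0.165%). It was 1 with non-malignant 2 and 3 averaged (0.0832%), and 1 to 15 with 1 array left out (0.0453% to 11.9%). The median of this comparison (0.23) was 0.14 with quantile normalization and 0.30 with median scaling. No ribosomal protein gene was called lower in any setting. The whole-table counts of called genes were 2083 for tumor minus control (841 to 2278 in other settings, 922 to 4119 with 1 array left out), 469 for non-malignant minus control (206 to 1119, and 203 to 709) and 562 for tumor minus non-malignant (66 to 672, and 57 to 3408). The replicate block was tried although the numbers were not taken to pair the samples. It gave 10 genes higher for tumor minus control, 0 for non-malignant minus control and 2 for tumor minus non-malignant. Of all genes, 7.27%, 2.45% and 0.542% were called higher in these 3 comparisons. Of 2037 recomputed differences of named genes, 91 changed sign, 51 of them with 1 array left out. All had an adjusted p of at least 0.265 before and after, so none was called in either fit. The cause of these changes was not tested.

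With quantile normalization, tumor minus control became Rpl13a -0.0597, Rpl19 -0.0201, Rps25 0.066 and Rps29 0.037. With quantile normalization, non-malignant minus control became Rpl37 -0.044, Rplp2 0.0012 and Rps20 0.0067. With quantile normalization, tumor minus non-malignant became Rpl7 -0.049, Rpl7l1 0.13, Rps14 -0.041, Rps25 0.17 and Rps7 -0.034. With median scaling, tumor minus control became Rpl7 0.041, Rps14 0.036, Rps25 0.036 and Rps29 0.025. With median scaling, non-malignant minus control became Rps27 0.0034. With median scaling, tumor minus non-malignant became Rpl7a 0.058, Rpl7l1 0.048 and Rps25 0.064. With the mean of probe sets, tumor minus control became Rpl13a -0.075, Rpl7 0.015 and Rps14 0.011. With the mean of probe sets, non-malignant minus control became Rpl35 -0.039, Rpl37a -0.093, Rps3 0.14 and Rps6 0.014. With the mean of probe sets, tumor minus non-malignant became Rpl37a 0.0396, Rpl7l1 0.15 and Rps29 -0.039. With non-malignant 2 and 3 averaged, non-malignant minus control became Rpl22 0.00035, Rpl27a 0.035, Rpl37a -0.0504, Rplp0 -0.0012, Rps19 0.0065, Rps4x -0.0056 and Rps7 -0.0039. With non-malignant 2 and 3 averaged, tumor minus non-malignant became Rpl7a 0.0037. Without probe sets of possible shared sequence, tumor minus control became Rps24 -0.081. Without probe sets of possible shared sequence, non-malignant minus control became Rpl35 -0.043. With 1 array left out, tumor minus control spanned 0 for Rpl13a -0.017 to 0.084, Rps25 -0.34 to 0.38, Rplp2 -0.038 to 0.20 and Rps14 -0.14 to 0.12. On leaving out 1 array, tumor minus control spanned 0 for Rpl12 -0.13 to 0.43. With 1 array left out, non-malignant minus control spanned 0 for Rpl11 -0.12 to 0.00097, Rpl35 -0.0696 to 0.0596, Rpl39 -0.13 to 0.12 and Rplp2 -0.16 to 0.074. On leaving out 1 array, non-malignant minus control spanned 0 for Rps27 -0.087 to 0.087, Rps27l -0.062 to 0.20, Rpl37a -0.083 to 0.12 and Rplp0 -0.00995 to 0.18. Over the 9 fits without 1 array, non-malignant minus control spanned 0 for Rps4x -0.0201 to 0.054, Rps6 -0.23 to 0.23, Rps7 -0.027 to 0.076 and Rpl22 -0.046 to 0.028. With 1 array left out, non-malignant minus control spanned 0 for Rpl27a -0.47 to 0.17, Rps19 -0.089 to 0.046, Rps25 -0.15 to 0.11 and Rpl37 -0.032 to 0.071. On leaving out 1 array, non-malignant minus control spanned 0 for Rpl12 -0.48 to 0.019, Rps14 -0.21 to 0.052 and Rps20 -0.037 to 0.023. With 1 array left out, tumor minus non-malignant spanned 0 for Rpl7l1 -0.16 to 0.17, Rpl7a -0.034 to 0.012 and Rps25 -0.31 to 0.41.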
